A study of Mus musculus with 2 samples.

Results

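Cells with the transcripts of double-positive thymocytes, the T cell precursors that carry both CD4 and CD8, were present in 10x Genomics libraries of wire-injured mouse carotid artery. A cell was counted as a non-cycling double-positive thymocyte when it held at least 1 UMI (a sequenced molecule) of Rag1 or Rag2, at least 1 of Cd8a or Cd8b1 and at least 1 of Cd4. It also had to hold 0 UMIs of Mki67, Top2a and Hist1h1b, 0 of the B cell gene Cd79a and at most 3 of C1qa, C1qb and C1qc together. The rule found 308 of 8009 kept cells at 4 weeks, or 3.85% (exact Clopper-Pearson 95% interval 3.44 to 4.29), and 378 of 5427 at 2 weeks, or 6.97% (6.30 to 7.68), which makes 686 of 13436 cells in all. Each time was 1 library, so no difference between 4 weeks and 2 weeks has a replicate check, no p-value is given, and every interval covers counting error only.

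Both groups were male C57BL/6J mice of 8 weeks of age, per the labels, with 18 animals stated for each time and no further genetic change named. The labels do not say whether the animals of a time were pooled. A guide wire had been drawn through the carotid artery to strip its endothelium, a model of intimal hyperplasia, and vessels were taken 28 days later for the 4-week library and 14 days later for the 2-week library. After perfusion the outer layer was separated from media and neointima, the tissue was digested with papain, and live nucleated cells were sorted. The labels conflict on the vessel, since the extraction text speaks of aortic grafts and the surgery text names the left carotid in one sentence and the right in the next, and no label names the thymus.

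Double-positive thymocytes arise in the thymic cortex after the pre-T cell receptor has driven a burst of division. They leave the cell cycle, switch on the RAG recombinase again to rearrange the T cell receptor alpha chain, and survive for a short time unless their receptor is selected. Selected cells raise CD69, lose one coreceptor, gain MHC class I and the receptors that guide exit, and stop expressing Rag genes.

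The label was checked with genes that the rule did not use. Endou, an endonuclease gene used as a marker of this stage, had at least 1 UMI in 79.9% of members at 4 weeks and 90.2% at 2 weeks, against 2.63% and 9.32% of fibroblast-marker cells, which should lack it. Median depth was 2738.5 and 3297.5 UMIs in members, against 12413 and 18954 in the fibroblast-marker cells. With every cell thinned to 1600 UMIs, the shares were 66.2% and 75.9% of members and 0.328% and 0.812% of fibroblast-marker cells. Rag-negative CD4 and CD8 cells, used for comparison, held Cd3 UMIs and either Cd4 or Cd8 UMIs but none of Rag1, Rag2 or the cycling genes. They numbered 232 and 506 at 4 weeks and 55 and 171 at 2 weeks. Endou UMIs were far above the level carried by free RNA in both libraries, and 16 of 16 measured genes of a double-positive stage list were at least 2-fold higher in members than in Rag-negative CD4 cells and than in Rag-negative CD8 cells. Over all genes measured, 9.18% were called higher in the first of these comparisons and 13% in the second. The list was written with earlier results of these data known, and the comparison cells were chosen to lack Rag UMIs. The list count is therefore a description and not an independent check of the label.

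The upstream regions of 3 stage genes are shown because they belong to genes that differ in where they were high: Rag1, the recombinase subunit, Ptcra, the pre-T cell receptor alpha chain, and Dntt, the terminal transferase that adds bases at the joints. Each is the 250 bases before the start site in RefSeq GRCm38.p6, written 5′ to 3′ on the gene's strand, in lower case, with capitals at matches to CAGCTG or CACCTG, the letters bound by E proteins, and to TGTGGT, the letters bound by RUNX factors, on either strand. The Rag1 region is chr2:101649533-101649782 on the minus strand, the Ptcra region chr17:46763713-46763962 on the minus strand and the Dntt region chr19:41029025-41029274 on the plus strand.
Rag1: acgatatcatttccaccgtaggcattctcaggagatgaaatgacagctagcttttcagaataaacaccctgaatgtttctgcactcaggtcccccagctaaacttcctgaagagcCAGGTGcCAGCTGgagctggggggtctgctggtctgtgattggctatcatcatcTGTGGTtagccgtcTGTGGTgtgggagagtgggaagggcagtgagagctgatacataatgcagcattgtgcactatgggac
Ptcra: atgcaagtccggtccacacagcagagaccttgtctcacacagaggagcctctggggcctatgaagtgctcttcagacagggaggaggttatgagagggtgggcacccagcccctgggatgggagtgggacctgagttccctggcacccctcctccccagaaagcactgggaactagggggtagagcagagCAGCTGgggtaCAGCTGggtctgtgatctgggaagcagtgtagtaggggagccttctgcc
Dntt: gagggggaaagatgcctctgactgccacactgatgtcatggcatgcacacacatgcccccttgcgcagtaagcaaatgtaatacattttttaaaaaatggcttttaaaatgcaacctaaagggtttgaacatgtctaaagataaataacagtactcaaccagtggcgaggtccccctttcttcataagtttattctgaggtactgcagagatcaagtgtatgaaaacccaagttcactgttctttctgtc
The Rag1 region held 1 CAGCTG, 1 CACCTG (read as CAGGTG) and 2 TGTGGT. The Ptcra region held 2 CAGCTG, and none of these letters occurred in the Dntt window. Among the 19 listed stage genes, 15 had an entry, and 9 of the 15 held CAGCTG or CACCTG upstream of at least 1 start site. Counted by start site, some of which overlap, 13 of 32 did, beside 27.7% of all 32851 promoter windows. TGTGGT was present in 2 of the 15 genes and 4 of 32 start sites, beside 14.0% of all windows. A match is a description of letters, not of binding.

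The members were small libraries of RNA. Their median UMI count of 2738.5 at 4 weeks (quartiles 2152 and 3364) and 3297.5 at 2 weeks (2701.5 and 4097.25) was the lowest of the populations plotted. Cycling double-positive cells, which pass the same Rag, Cd4 and Cd8 rule but hold UMIs of Mki67, Top2a or Hist1h1b, had medians of 8552.5 and 10219. A median member had 1428 genes at 4 weeks and 1644.5 at 2 weeks, with 2.72% and 2.42% mitochondrial UMIs. Members' ribosomal protein genes took 19.5% and 19.0% of summed UMIs, against 34.5% and 24.4% in Rag-negative CD4 cells.

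**Figure D1:**
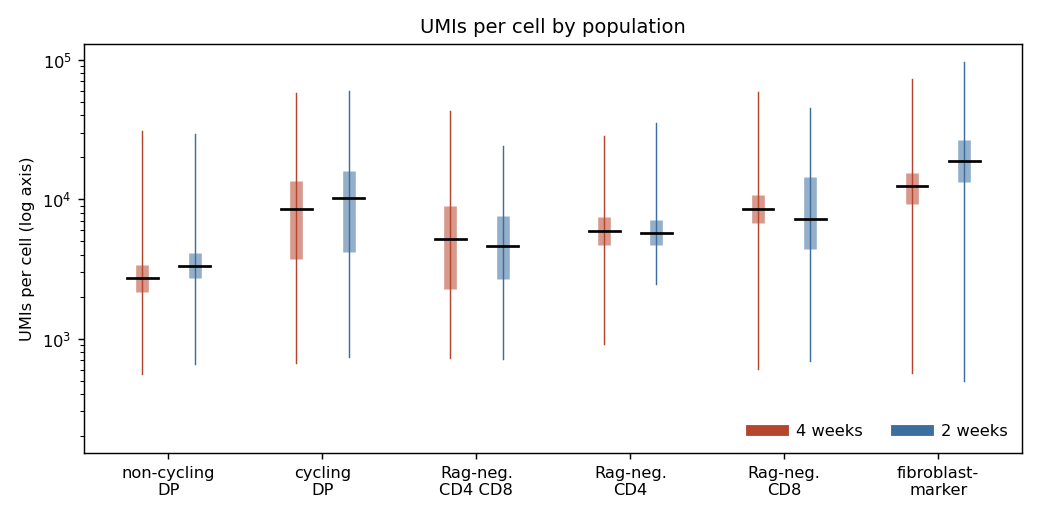
UMIs per cell (log axis) in 6 populations at 4 weeks (red) and 2 weeks (blue). Black lines are medians, boxes run from the first to the third quartile and thin lines from the lowest to the highest cell; the members' medians of 2738.5 and 3297.5 UMIs lie below those of the other populations.

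As cycling cells were also the deeper ones, the split of double-positive cells was computed at equal depth too. Among all double-positive cells, 308 of 520 at 4 weeks were non-cycling, or 59.2% (54.9 to 63.5), and 378 of 1067 at 2 weeks, or 35.4% (32.6 to 38.4). After thinning to 1600 UMIs the shares were 312 of 478, or 65.3% (60.8 to 69.5), at 4 weeks and 513 of 1035, or 49.6% (46.5 to 52.7), at 2 weeks, with 42 and 32 cells too shallow to enter. The share was higher at 4 weeks in both forms, and the gap was smaller after thinning.

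The thresholds of the rule bear on few members through Rag and Cd8, and on many through Cd4. Exactly 1 Rag UMI was held by 30 members at 4 weeks and 16 at 2 weeks, with medians of 6 and 6, exactly 1 Cd8 UMI by 13 and 9, and exactly 1 Cd4 UMI by 117 and 142. On the other side, 58 and 174 double-positive cells were left out for exactly 1 cycling UMI. Their Endou level was 871 CPM (UMIs of the gene per 1e+06 summed UMIs) at 4 weeks and 884 at 2 weeks, against 701 and 1109 CPM in members, so cells next to that threshold carried the same marker. A further 28 members at 4 weeks and 148 at 2 weeks held 1 to 3 C1q UMIs. The Cd79a limit alone left out 26 cells at 4 weeks and 1 at 2 weeks that met the rest of the rule. For comparison, 4 of 3083 (0.130%) and 1 of 1255 (0.0797%) fibroblast-marker cells and 6 of 246 (2.44%) and 18 of 941 (1.91%) macrophage-marker cells passed the Rag, Cd8 and Cd4 parts of the rule.

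Some members also carried RNA of other cell types. In 15 members at 4 weeks and 3 at 2 weeks a marker list of another cell type reached 1% of the cell's UMIs. The 10 fibroblast markers, all detected, summed to 7290 CPM in members at 4 weeks and 4634 CPM at 2 weeks, and to 1424 and 1226 CPM without those cells, against 32131 and 28601 CPM in all kept cells. The 9 macrophage markers counted, all detected, summed to 1267 and 1015 CPM, and to 326 and 982 CPM without those cells. B cell markers (7 of 7 detected at 4 weeks and 3 of 7 at 2 weeks) summed to 329 and 160 CPM, with Ms4a1, Cd22 and Pax5 among those at 0 at 2 weeks. The erythroid sum of 3507 CPM at 4 weeks lay 95.6% in 1 cell, and the neutrophil sum of 298 CPM at 2 weeks lay 81.9% in 1 cell. Doublet scores were among the library's highest in 18 members at 4 weeks and 5 at 2 weeks. Results that rest on such cells are given with and without them, and their part in the remaining differences was not tested. Cell barcodes common to both libraries numbered 8, of which 0 were members at 4 weeks and 3 at 2 weeks.

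The genes of the rule describe how the members were chosen. Rag1 (mm10 chr2:101638282-101649501, minus strand) stood at 1811 CPM at 4 weeks and 1971 CPM at 2 weeks in members, Rag2 at 81.3 and 64.2 CPM, Cd4 at 630 and 614 CPM and Cd8b1 at 2242 and 2253 CPM. In cycling double-positive cells, which pass the same requirement, Rag1 stood at 673 and 642 CPM. Of the members, 234 at 4 weeks and 307 at 2 weeks held Rag1 alone, 71 and 70 held both Rag genes, and 3 and 1 held Rag2 alone.

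Several genes of the recombination machinery beyond the rule were higher in members than in Rag-negative CD4 cells. Dntt (chr19:41029275-41059525, plus strand) stood at 1217 CPM at 4 weeks and 1450 CPM at 2 weeks in members, against 7.27 and 9.79 CPM in Rag-negative CD4 cells, log2 ratios of 7.39 (6.54 to 8.39) and 7.21 (5.85 to 9.09). Xrcc6, the Ku70 subunit that holds broken DNA ends, stood at 294 and 426 CPM against 22.5 and 12.2 CPM. Lig4, the ligase that joins those ends, stood at 73.8 and 115 CPM against 4.63 and 2.45 CPM, and Dclre1c, the Artemis nuclease that opens the hairpins, at 75.7 and 153 CPM against 9.91 and 17.1 CPM. In the rearrangement list 5 of 11 measured genes were 2-fold or more higher with intervals excluding 0 in both libraries, and 0 were lower (medians 0.52 at 4 weeks and 1.42 at 2 weeks, beside 0.37 and 0.28 over all genes). Against cycling double-positive cells 1 of 13 was higher and 2 were lower, beside 5.66% and 7.1% of all genes. The 1 higher gene was near that share. Over all genes measured in the CD4 comparison, 709 of 7720 (9.18%) were called higher and 260 (3.37%) lower.

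Genes of the double-positive stage were higher in members than in Rag-negative CD4 and CD8 cells, some of them near the floor there and others not. Endou (chr15:97711015-97731339, minus strand) stood at 701 CPM at 4 weeks and 1109 CPM at 2 weeks in members, against 4.63 and 7.34 CPM in Rag-negative CD4 cells and 5.27 and 31.2 CPM in Rag-negative CD8 cells. Arpp21 (chr9:112065091-112235938, minus strand), a cyclic AMP-regulated phosphoprotein gene, stood at 1529 and 1671 CPM in members, against 4.63 and 4.89 CPM in CD4 cells. Its log2 ratios of 8.37 (7.32 to 9.68) and 8.42 (6.56 to 11.46) rested on 7 and 2 UMIs in the CD4 cells. Both genes were therefore near the floor in CD4 cells in each library.

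Regulators and receptors of the stage followed. Bcl2l1, which encodes the survival protein Bcl-xL, stood at 103 CPM at 4 weeks and 140 CPM at 2 weeks in members, against 9.91 and 29.4 CPM in CD4 cells. Themis, a signalling protein needed for thymocyte selection, stood at 662 and 771 CPM, against 80.0 and 97.9 CPM. The chromatin organiser Satb1 was detected in CD4 cells as well, with 3249 and 3401 CPM in members against 406 and 852 CPM. Ccr9, the receptor for the thymic chemokine Ccl25, stood at 856 and 1139 CPM in members, against 19.8 and 149 CPM in CD4 cells, so that its log2 ratio of 5.43 (4.91 to 6.01) at 4 weeks was larger than the 2.93 (2.56 to 3.32) at 2 weeks.

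**Figure D2:**
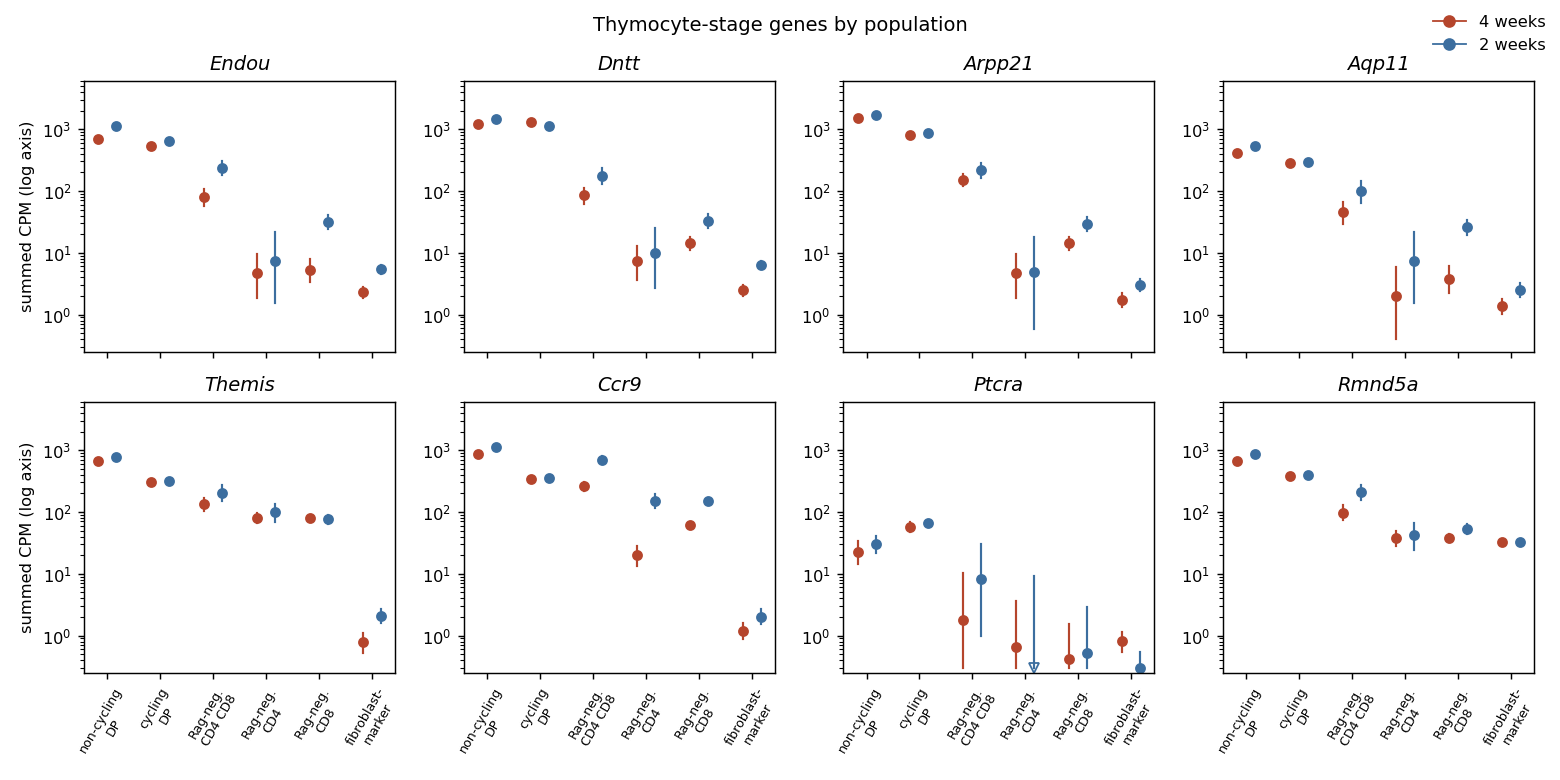
Summed CPM (log axis, 95% Poisson intervals) of 8 double-positive stage genes in 6 populations, 4 weeks in red and 2 weeks in blue; an open triangle marks 0 UMIs. Endou, Dntt, Arpp21 and Aqp11 were high in both double-positive populations and at 32.8 CPM or less in Rag-negative CD4 and CD8 cells, while Ptcra was lower in non-cycling than in cycling double-positive cells.

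In the double-positive stage list, 16 of 16 measured genes were called higher than in CD4 cells (medians 4.78 and 4.30 on the log2 scale, against 0.37 and 0.28 over all genes). Against Rag-negative CD8 cells 16 of 16 were higher too (medians 4.92 and 4.19, against 0.40 and 0.18 over all genes), and 15 of 16 without cells carrying other-cell markers. Over all genes in the CD8 comparison 1261 of 9704 (13%) were called higher and 448 (4.62%) lower. The positive medians over all genes shift every log2 ratio of these comparisons by 0.18 to 0.40, so ratios are best read relative to them. Scaling by median-of-ratios moved the calls against CD4 cells to 427 higher and 423 lower, and those against CD8 cells to 772 higher and 811 lower, while the stage list stayed at 16 of 16 in both. Many Rag-negative CD8 cells carried other-cell markers, and 409 of 506 at 4 weeks and 95 of 171 at 2 weeks remained without those. The calls against CD8 cells were then 802 higher and 250 lower of 7515.

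T lineage transcription factors were higher in members more often than lower, and receptor signalling genes less uniformly so. Lck, the kinase bound to CD4 and CD8, stood at 1250 CPM at 4 weeks and 1200 CPM at 2 weeks, against 482 and 350 CPM in CD4 cells. Cd27, a costimulatory receptor, stood at 545 and 508 CPM, against 227 and 103 CPM. The signalling list had 6 genes higher and 3 lower of 22 against CD4 cells (medians 0.25 and 0.59), which became 3 and 3 under median-of-ratios scaling, and 11 higher and 1 lower of 22 against CD8 cells (0.96 and 1.51), or 5 and 1 without cells carrying other-cell markers. Of the T lineage transcription factors, 9 of 23 were higher and 1 lower against CD4 cells (medians 0.77 and 1.01), and 14 of 24 higher and 1 lower against CD8 cells (1.53 and 1.41), which became 7 and 1 of 23 without cells carrying other-cell markers. Beside these 2 lists, 9.18% of all genes were called higher and 3.37% lower against CD4 cells, and 13% and 4.62% against CD8 cells. Tcf7, an early T lineage factor, stood at 1442 and 1817 CPM, against 453 and 323 CPM in CD4 cells. Myb, a factor needed at this stage, stood at 468 and 713 CPM, against 16.5 and 9.79 CPM. The lineage-commitment factors lay the other way, with Zbtb7b, the CD4 lineage factor, at 2.84 and 1.46 CPM in members against 48.9 and 31.8 CPM in CD4 cells, and Runx3, the CD8 lineage factor, at 31.2 and 16.1 CPM against 174 and 77.0 CPM in CD8 cells.

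Genes of maturation and exit from the thymus were low in members. In that list 10 of 14 genes were called lower than in CD4 cells (medians -2.21 and -2.46) and 9 of 14 lower than in CD8 cells (-2.24 and -2.11). Of all genes measured, 3.37% were called lower than in CD4 cells (medians 0.37 and 0.28) and 4.62% lower than in CD8 cells (0.40 and 0.18). Ccr7, the receptor that draws selected cells to the medulla, stood at 15.1 CPM at 4 weeks and 19.0 CPM at 2 weeks in members, against 144 and 201 CPM in CD4 cells. S1pr1, the exit receptor, stood at 23.6 and 1.46 CPM, against 123 and 103 CPM. Its transcriptional activator Klf2 stood at 133 and 72.9 CPM, against 381 and 274 CPM. The survival gene Bcl2 was lower as well, at 61.5 and 54.0 CPM against 252 and 210 CPM, opposite to Bcl2l1.

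MHC class I genes, which rise as thymocytes mature, were lower in 9 of 14 cases against CD4 cells (medians -1.48 and -1.44) and lower in 6 and higher in 1 of 14 against CD8 cells (-1.05 and -0.95). B2m, the class I light chain, stood at 536 CPM at 4 weeks and 461 CPM at 2 weeks in members, against 1798 and 1828 CPM in CD4 cells. H2-K1 stood at 394 and 171 CPM, against 2153 and 1649 CPM, log2 ratios of -2.45 (-2.60 to -2.30) and -3.27 (-3.49 to -3.06). Class I heavy chain genes have close copies, so counts of single H2 genes are uncertain. Interferon response genes were lower in 4 of 9 against CD4 cells (medians -0.96 and -1.75) and 8 of 15 against CD8 cells (-1.12 and -1.95). Beside both lists, 3.37% of all genes were called lower against CD4 cells. Against CD8 cells 4.62% of all genes were called lower and 13% higher.

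**Figure D3:**
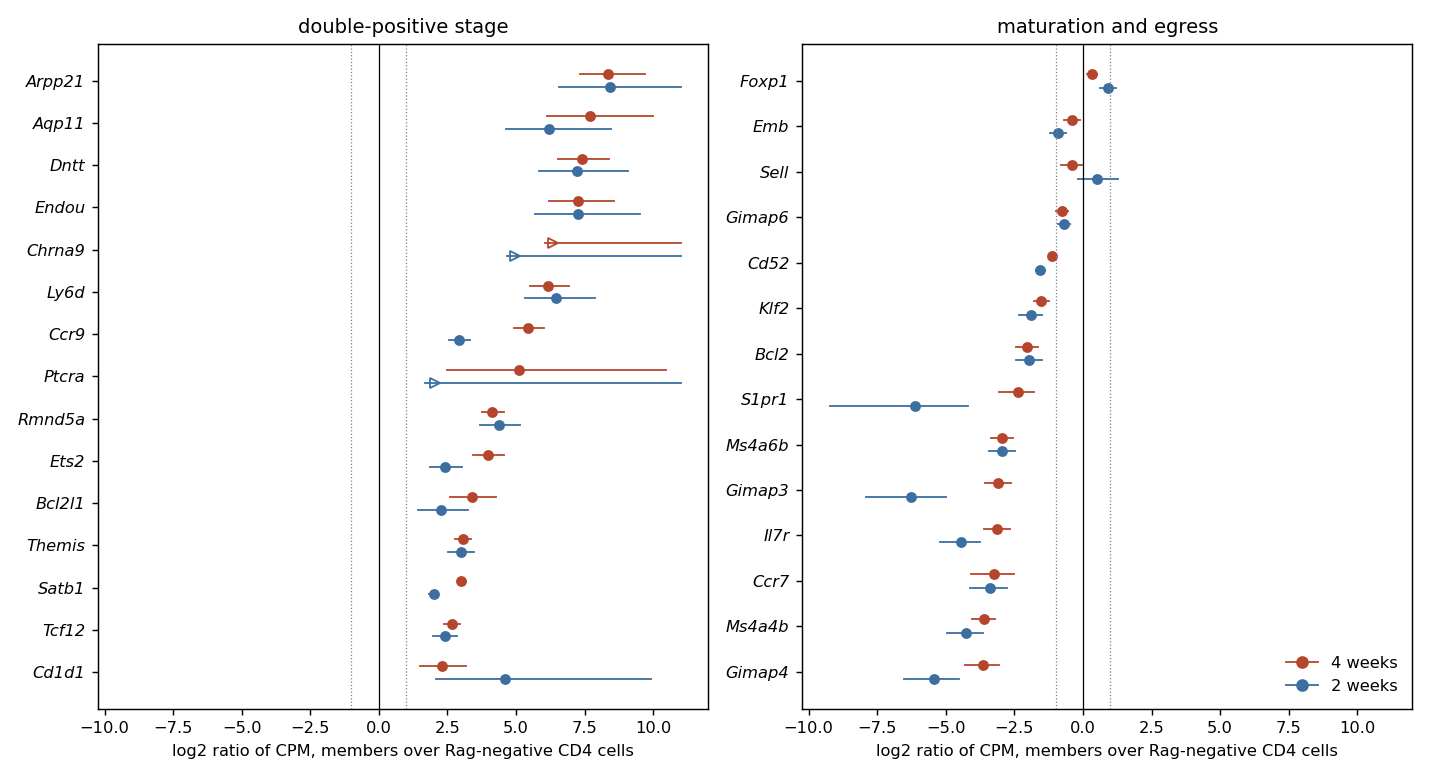
Log2 ratio of CPM, members over Rag-negative CD4 cells, with exact 95% intervals, for the double-positive stage list (left) and the maturation and egress list (right), 4 weeks in red and 2 weeks in blue; dotted lines mark 2-fold and open triangles a bound against 0 UMIs. The 15 stage genes drawn lie right of the 2-fold line and 10 of the 14 maturation genes were called lower.

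The genes named for the largest difference from CD4 cells included some outside the lists. Rapgef3, a cyclic AMP-responsive exchange factor, stood at 174 CPM at 4 weeks and 325 CPM at 2 weeks, against 0 and 2.45 CPM. Wdr78, an axonemal dynein intermediate chain, stood at 214 and 260 CPM, against 5.29 and 4.89 CPM. Dgkeos, a non-coding antisense gene that may share reads with its partner, stood at 326 and 384 CPM with 0 UMIs in CD4 cells. The named genes lower than in CD4 cells were Bcl2a1d, Gimap4, Tnfrsf4, Ms4a4b, Gpr183, Bcl2a1b, Ccr7, Icos, H2-Q7 and Maf, with Icos, a costimulator of activated cells, at 20.8 and 24.8 CPM against 187 and 392 CPM. Against CD8 cells the lower genes included the cytotoxic genes Ccl5, at 33.1 and 16.0 CPM against 1317 and 1696 CPM, and Nkg7, at 27.4 and 6.57 CPM against 576 and 329 CPM. The others named were Ctla2a, Ly6c2, Tagln, Spp1, Timp1, Clu, Ctsw and Ms4a4b. Tagln, a smooth muscle gene, stood at 4.73 and 48.1 CPM against 79.7 and 882 CPM. Many CD8 cells carried other-cell markers, and their part in these genes was not tested.

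Granzyme genes were looked at after their values were seen. Gzma stood at 42.6 CPM at 4 weeks and 101 CPM at 2 weeks in members, against 127 and 189 CPM in cycling double-positive cells, 97.4 and 124 CPM in Rag-negative CD8 cells and 57.8 and 114 CPM over all kept cells. After thinning, 7.81% (4.90 to 11.7) and 10.8% (7.75 to 14.5) of members held a Gzma UMI, against 1.41% and 8.02% of CD8 cells and 0.197% and 0.406% of fibroblast-marker cells. The shares and the levels run opposite ways between members and CD8 cells, so no order is read from them. Gzmb, a companion granzyme of cytotoxic cells, had 0 UMIs in members of both libraries, against 22.6 and 64.5 CPM in Rag-negative CD8 cells.

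Cell cycle genes beyond the 3 in the rule were low but not at 0. After thinning, 23.4% (18.5 to 28.9) of members at 4 weeks and 25% (20.6 to 29.9) at 2 weeks held 2 or more S phase UMIs, against 63.2% and 60.6% of cycling double-positive cells and 12.9% and 23.6% of CD4 cells. For mitosis genes the shares were 14.5% and 12.2%, against 59.8% and 59.4% of cycling cells and 7.59% and 9.09% of CD4 cells. Clustered histone genes differed from both, with 29.0% (23.6 to 34.8) and 39.2% (34.1 to 44.5) of members against 67.5% and 72.6% of cycling cells and 2.68% and 3.64% of CD4 cells. In all 3 lists the members' shares lay between those of the cycling cells and those of the CD4 cells in both libraries. Only for histone genes were the intervals of members and CD4 cells apart in both libraries. As the rule asks for 0 UMIs of Hist1h1b and other cycling genes, the gap to cycling cells in part describes the rule. Hist1h2ap, a histone gene, stood at 185 and 202 CPM in members, against 2264 and 1913 CPM in cycling cells and 15.9 and 19.6 CPM in CD4 cells. Histone genes are near-identical copies, so counts of single genes are uncertain.

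**Figure D4:**
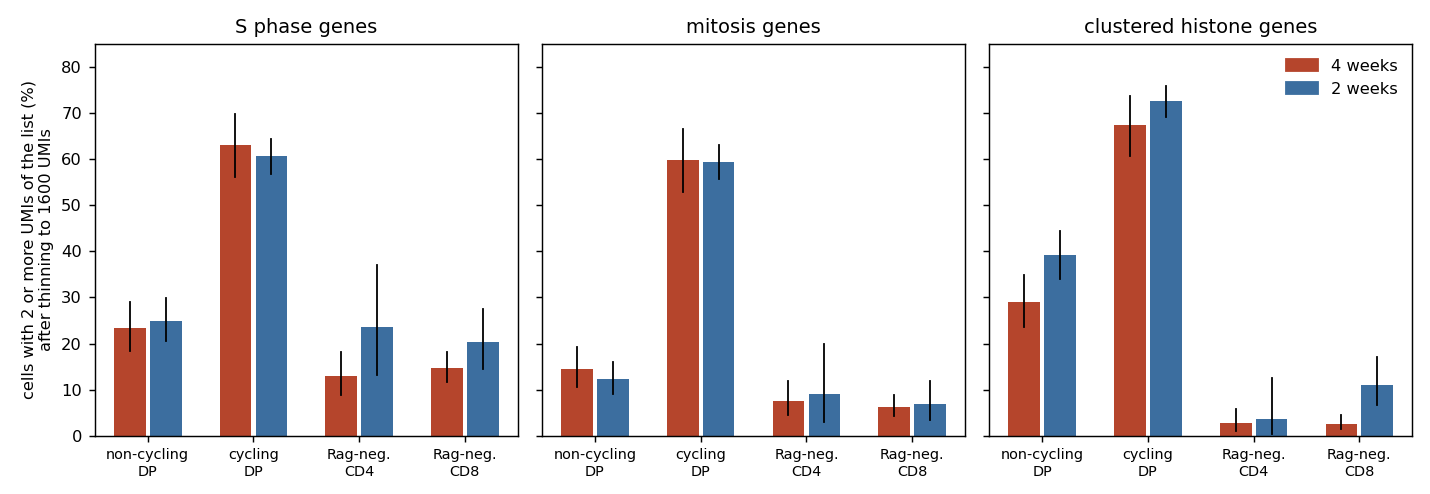
Share of cells (percent, after thinning to 1600 UMIs, with exact 95% intervals) holding 2 or more UMIs of S phase, mitosis and clustered histone genes, 4 weeks in red and 2 weeks in blue. In each list the members' shares, 29.0% and 39.2% for histone genes, lie between the cycling double-positive and the Rag-negative cells in both libraries.

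Set against cycling double-positive cells, 519 of 9163 genes (5.66%) were called higher in members and 651 (7.1%) lower. Median-of-ratios scaling gave 234 higher and 834 lower. As the split was made on cycling genes, the 24 of 25 S phase and 25 of 25 mitosis genes called lower describe the rule. The stage list gave 4 genes higher and 1 lower of 16 (1 higher and 1 lower under median-of-ratios scaling), with medians of 0.81 and 0.92 beside 0.23 and 0.20 over all genes. Among the higher genes were Ccr9, at 856 CPM at 4 weeks and 1139 CPM at 2 weeks in members against 337 and 358 CPM in cycling cells, and Chrna9, a nicotinic receptor subunit, at 162 and 228 CPM against 70.7 and 63.8 CPM. Ptcra was the stage gene lower in members, at 22.7 and 29.9 CPM against 57.6 and 66.6 CPM, log2 ratios of -1.34 (-2.04 to -0.70) and -1.16 (-1.65 to -0.70).

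Other genes higher than in cycling cells included surface molecules and regulators. Cd52, a surface glycoprotein of mature lymphocytes, stood at 926 CPM at 4 weeks and 503 CPM at 2 weeks in members, against 228 and 137 CPM. Plxnd1, the semaphorin receptor of cortical thymocytes, stood at 208 and 173 CPM, against 85.7 and 57.4 CPM. Bcl6, a transcriptional repressor, stood at 86.1 and 79.5 CPM, against 25.7 and 30.7 CPM. The genes named for size were Inadl, Tspan32, Zfyve28, Spo11, Cd52, Mirt1, Gabbr1, Fbxl20, Nav2 and Pdk1, with Spo11, the meiotic DNA-cleaving protein, at 74.7 and 95.6 CPM against 20.1 and 20.6 CPM, and Pdk1, a pyruvate dehydrogenase kinase, at 153 and 152 CPM against 39.8 and 45.0 CPM. Maturation genes were higher in 5 of 13 and lower in 0 (medians 1.18 and 1.13, and 4 higher under median-of-ratios scaling). Positive selection genes were higher in 3 of 13 (0.94 and 0.71, with 1 higher under that scaling and 5 without other-cell cells), and NADPH and lipid enzymes lower in 5 of 11 (-1.28 and -1.18). Of all genes in this comparison, 5.66% were called higher and 7.1% lower (medians 0.23 and 0.20).

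Rag UMIs are part of the rule, so values by Rag level are a description. With 6 or more Rag UMIs (164 members at 4 weeks and 215 at 2 weeks), Dntt stood at 1464 and 1550 CPM and H2-K1 at 288 and 113 CPM. With exactly 1 Rag UMI (30 and 16 members), Dntt stood at 770 and 584 CPM, Endou at 317 and 402 CPM and H2-K1 at 815 and 292 CPM. Other-cell RNA moved with this split. Of the members with 1 Rag UMI, 3 of 30 at 4 weeks and 1 of 16 at 2 weeks carried other-cell markers, against 5 of 164 and 0 of 215 with 6 or more. Doublet scores were among the highest in 5 and 0 of them, against 8 and 2 with 6 or more. Col3a1 stood at 706 and 16451 CPM with 1 Rag UMI, against 430 and 236 CPM with 6 or more, and its part in the differences was not tested.

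A small set, chosen after its values were seen, held 3 or more UMIs of S1pr1, Ccr7, Il7r, Gimap3, Gimap4 and Ms4a4b together. It had 15 of the members at 4 weeks (4.87%) and 5 at 2 weeks (1.32%), at median depths of 8980 and 8432 UMIs. Among them, 8 of 15 and 3 of 5 had doublet scores among the library's highest. Their Endou level was 253 and 211 CPM and their H2-K1 level 1578 and 1416 CPM, against 780 and 1142 CPM of Endou and 186 and 126 CPM of H2-K1 in the other members.

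The variation of single genes among members was read as a Fano factor, which can lie near 1 for sparse genes even where they vary. Over 2416 genes the median (variance over mean of thinned UMIs, 1 for pure counting) was 1.06 at 4 weeks and 1.05 at 2 weeks. Malat1, a nuclear non-coding RNA, had 13.0 and 13.1, and the cytoskeletal genes Tmsb4x 3.08 and 2.95 and Actb 2.55 and 2.94. Col3a1 had 8.13 and 22.3, which became 1.02 and 1.06 without the members carrying other-cell markers. Cd74, an antigen presentation gene of other cells, had 6.20 and 8.85, and 1.39 and 8.85 without them.

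CD69 marks recently selected thymocytes. After thinning, 22 of 269 members at 4 weeks, or 8.18% (5.20 to 12.1), and 44 of 352 at 2 weeks, or 12.5% (9.23 to 16.4), held a Cd69 UMI. Unthinned, Cd69 stood at 92.7 and 104 CPM in members, against 41.2 and 45.0 CPM in cycling cells and 264 and 272 CPM in CD4 cells. Between members with and without a thinned Cd69 UMI, 0 of the 6 positive selection genes with 20 or more thinned UMIs in each library (Nr4a1, Egr1, Tox, Id3, Gata3 and Slfn2) were higher with intervals excluding 0 in both libraries, beside 4 of 3561 such genes (0.112%) higher and 4 lower (0.112%). The other 11 of the 17 listed genes had too few UMIs for a reading. With 2 or more unthinned Cd69 UMIs against 0, 4 of the listed genes, Cd5, Bcl2, Il7r and Cd53, were higher in both libraries, in cells whose depths were not made equal. No share over all genes is given for that split, so the 4 genes are a description. Il7r, the interleukin 7 receptor alpha chain, then stood at 134 CPM at 4 weeks and 94.3 CPM at 2 weeks in members with Cd69, against 16.8 and 4.93 CPM in those without. Its UMIs were few: after thinning, 4 with and 4 without Cd69 at 4 weeks, and 0 and 8 at 2 weeks. Among members without other-cell markers, 1 cell held 22.5% of the unthinned Il7r UMIs at 4 weeks and 1 held 40% at 2 weeks. Cd5, a receptor that tracks the strength of T cell receptor signalling, stood at 142 and 176 CPM, against 36.0 and 65.1 CPM.

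Between the libraries, 412 of 8619 genes (4.78%) were 2-fold or more higher at 4 weeks and 224 (2.6%) lower, with intervals excluding 0, and the median ratio was -0.03 on the log2 scale. As each time was 1 library, the time after injury, the animals used and the tissue taken cannot be told apart in these differences. Without the members carrying other-cell markers (293 members left at 4 weeks and 375 at 2 weeks) the counts were 139 (1.74%) and 209 (2.62%) of 7983. The genes named as highest at 4 weeks over all members were Inmt, Mmp3, Abca8a, Dpep1, Cygb, Fbln1, Abi3bp, Angptl1, C1ra and Fmo2, which fibroblasts express, and Inmt had 101 UMIs at 4 weeks and 1 at 2 weeks, 69.3% of the 101 in 1 cell. Slpi, S100a9 and S100a8 led the lower genes, with 86.2% of S100a9 and 85.2% of S100a8 UMIs at 2 weeks in 1 cell. Where a gene below is given a second ratio, it is without those members.

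Genes known to respond to glucocorticoids were partly lower at 4 weeks. Per1, a circadian repressor, stood at 44.5 CPM at 4 weeks, against 187 CPM at 2 weeks, a log2 ratio of -2.07 (-2.55 to -1.62), and -1.98 (-2.49 to -1.51) without other-cell members. Tsc22d3, which encodes GILZ, stood at 232 CPM against 525 CPM, -1.18 and -1.26. In that list 4 of 11 genes lay above 0 and 6 below by more than their interval (2 and 7 without other-cell members), with medians of -0.43 and -0.52, beside 9.91% of all genes above and 10.1% below (6.73% and 8.1%). Klf9 turned round, with 1.06 over all members and -1.87 without other-cell members. Not every gene of the list was lower. Without other-cell members Dusp1 had 0.36 (0.09 to 0.63), Sgk1 0.59 (-0.09 to 1.26) and Fkbp5 -0.10 (-0.58 to 0.38). In cycling double-positive cells the ratios of Per1 and Tsc22d3 were -0.65 and -0.45.

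Single genes of other lists, and some of none, were lower at 4 weeks. Of the positive selection list 3 genes lay above and 5 below 0 of 13 (2 and 2 without other-cell members), and of the apoptosis regulators 2 above and 4 below of 19 (1 and 4). Beside these and the histone list below, 9.91% of all genes lay above and 10.1% below (6.73% and 8.1% without other-cell members). The apoptosis genes above 0 were near that share. Nr4a1, the receptor-induced Nur77 gene, stood at 52.0 CPM at 4 weeks, against 134 CPM at 2 weeks, a log2 ratio of -1.37 (-1.40 without other-cell members). Bcl2l11, which encodes the death protein Bim, stood at 149 CPM against 349 CPM, -1.22 (-1.03). Eif2ak3, the stress kinase PERK, stood at 60.5 CPM against 220 CPM, -1.86 (-1.76), and its ratio was also negative in Rag-negative CD4 cells (-2.43) and CD8 cells (-1.94). Gpr171, a G protein-coupled receptor, stood at 41.6 CPM against 173 CPM (-2.05, and -1.85 without other-cell members), and Stat5a, a cytokine signalling factor, at 53.0 CPM against 190 CPM (-1.84 and -1.68). Linker histone Hist1h1e stood at 52.0 CPM against 129 CPM, -1.31 (-1.23), while its ratio in cycling double-positive cells was -0.09. In the histone list 0 genes lay above and 5 of 12 below 0 by more than their interval, with and without other-cell members (medians -0.54 and -0.52).

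The stage genes were also somewhat lower at 4 weeks, by less than 2-fold. Of 16 measured genes 0 lay above and 13 below 0 by more than their interval (median -0.33), and 1 above and 7 below without other-cell members (median -0.17). The shares over all genes were 9.91% above and 10.1% below, and 6.73% and 8.1% without other-cell members. Endou stood at 701 CPM at 4 weeks, against 1109 CPM at 2 weeks, a log2 ratio of -0.66 (-0.79 to -0.53), or -0.53 without other-cell members. In cycling double-positive cells its ratio was -0.23. Arpp21 had -0.13 over all members and 0.02 (-0.08 to 0.11) without other-cell members.

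Immediate early genes were mixed. Fosb, a component of the AP-1 factor, stood at 623 CPM at 4 weeks, against 230 CPM at 2 weeks, a log2 ratio of 1.44 (1.24 to 1.64), and 1.28 (1.06 to 1.49) without other-cell members. Fos stood at 1138 CPM against 450 CPM, 1.34 and 0.82, and Jun at 785 CPM against 349 CPM, 1.17 and 0.78. In cycling double-positive cells these ratios were 0.65 for Fosb, 0.57 for Fos and 0.60 for Jun. In Rag-negative CD4 cells they were -1.24, -1.35 and -1.11 over all cells and -0.13, 0.24 and 1.14 without cells carrying other-cell markers, so their sign there depended on those cells. Of 14 list genes 8 lay above and 2 below 0 by more than their interval (6 and 4 without other-cell members), with medians of 0.43 and 0.05. Egr1 had 0.84 over all members and -0.35 without, Ier3 0.71 and -1.61, and Atf3 -0.04 and -2.61. In the heat shock list 7 of 9 lay above and 1 below (6 and 2 without; medians 0.37 and 0.38), with Hsp90aa1, a chaperone, at 641 CPM at 4 weeks against 435 CPM at 2 weeks, and a ratio of 0.55 without other-cell members. For both lists the shares over all genes were 9.91% above and 10.1% below (6.73% and 8.1% without other-cell members).

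Several maturation and MHC class I genes were higher at 4 weeks, and part of that lay in few cells. In the maturation list 7 of 14 genes lay above and 3 below 0 by more than their interval (9 and 3 without other-cell members; medians 0.70 and 0.78). In the MHC class I list 6 of 13 lay above and 0 below, with and without them (medians 0.23 and 0.22). All genes together had 9.91% above and 10.1% below, or 6.73% and 8.1% without other-cell members. S1pr1 had 25 UMIs at 4 weeks and 2 at 2 weeks (24 and 2 without other-cell members), and Gimap3, a GTPase of maturing T cells, 42 and 5 in either set. H2-K1 stood at 394 CPM at 4 weeks, against 171 CPM at 2 weeks, a log2 ratio of 1.21 (0.97 to 1.45), and 1.41 (1.14 to 1.69) without other-cell members. Psme2, a proteasome activator subunit of the class I list, stood at 107 CPM at 4 weeks, against 49.7 CPM at 2 weeks, 1.10 (0.63 to 1.58), without other-cell members. In the 279 members at 4 weeks and 369 at 2 weeks left without other-cell markers, highest doublet scores or 3 maturation UMIs, a set chosen after the values were seen, H2-K1 stood at 102 and 81.4 CPM, 0.33 (-0.12 to 0.77). S1pr1 there had 6 and 2 UMIs and Gimap3 3 and 2, since most cells that carried them are left out of it. Cd52 had 0.83 (0.67 to 0.99) in that set, 0.88 over all members and 0.95 without other-cell members, and its ratio in cycling double-positive cells was 0.74.

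Lingo4 and Ccnd2, higher at 4 weeks without other-cell members, belong to no list. Lingo4, a leucine-rich repeat membrane protein, stood at 50.6 CPM at 4 weeks, against 11.5 CPM at 2 weeks, 2.14 (1.27 to 3.09), and its ratio in cycling double-positive cells was 0.16. Ccnd2, a D-type cyclin, stood at 62.0 CPM against 13.0 CPM, 2.25 (1.44 to 3.13), with 24.1% of its UMIs at 4 weeks and 47.1% at 2 weeks in 1 cell each, and had 0.75 (-1.15 to 2.66) in the 279 and 369 members just described.

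**Figure D5:**
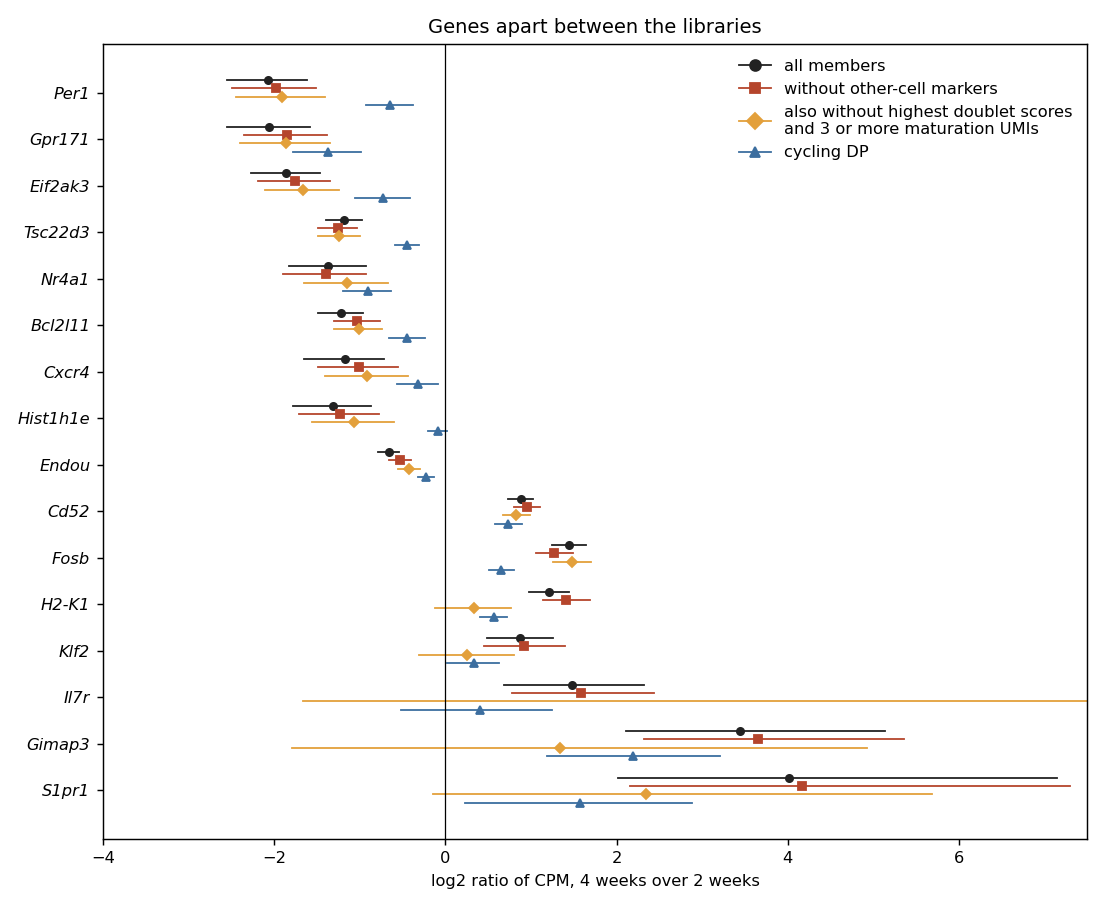
Log2 ratio of CPM, 4 weeks over 2 weeks, with exact 95% intervals, for 16 genes in all members (black), members without other-cell markers (red), members also without highest doublet scores and 3 or more maturation UMIs (orange) and cycling double-positive cells (blue). Per1, Gpr171 and Eif2ak3 lie below 0 in every set shown, whereas the orange intervals of H2-K1, Klf2, Il7r, Gimap3 and S1pr1 include 0; the orange point of Il7r, with 0 UMIs at 2 weeks, lies off the axis.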

How the data were processed

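Single-cell RNA was measured with 10x Genomics libraries, 1 at 2 weeks and 1 at 4 weeks after injury. The authors deposited whole, unnormalised UMI counts for each gene and barcode. Per the file headers, these came from Cell Ranger 4.0.0. The submitters' processing notes give mm10 as the build. Of 27998 genes, 27645 (98.7%) matched GENCODE M21, which gives the gene positions; segments of the T cell receptor were not analysed here. Of 8565 barcodes with 83753250 UMIs at 4 weeks and 5864 with 78773018 at 2 weeks, those kept had 300 genes or more, 500 UMIs or more and no more than 10% of UMIs from mitochondrial genes (medians 9094 and 12096 UMIs). Shallow barcodes removed numbered 73 and 54, and 483 and 383 were removed for mitochondrial UMIs. Doublets were scored with Scrublet in scanpy and kept in the main results, with the highest scores at 0.8% per 1000 barcodes (549 and 255) left out as an alternative.

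UMIs were summed over the cells of a population in each library and given as CPM, which is not adjusted for gene length. Log2 ratios have exact conditional binomial 95% intervals, levels exact Poisson intervals and shares exact Clopper-Pearson intervals, all of counting error alone. Ratios between the libraries used genes with at least 20 UMIs over both libraries. Ratios between populations used genes with at least 20 UMIs over members and comparison cells together in each library. Called means 2-fold or more with an interval excluding 0, and between populations in both libraries with 1 sign. Thinning drew 1600 UMIs per cell without replacement (seed 1). Other-cell members were those in which the markers of 1 other cell type reached 1% of UMIs, an alternative added after seeing the data. The genes named by size were the 10 largest ratios in each direction among called genes with 50 UMIs and 50 CPM, no less than 10% of the highest CPM of any comparison population; genes without a name, and those of mitochondria, ribosomes, haemoglobin and the sex chromosomes, did not enter. The members, the comparison populations and the gene lists were chosen with earlier results of these data known. Promoter windows come from RefSeq GRCm38.p6, with no entry for Endou, Cd1d1 and Ly6d. Some listed genes entered the counts and medians but are not reported here by name. Alternatives were another scaling, UMI minimum, filters, thinning, the doublet filter and stricter member rules. The ratio code was tested on simulated data. Python 3.11.15, numpy 2.4.6, pandas 2.3.3, scipy 1.17.1, scanpy 1.11.5 and matplotlib 3.10.9 were used.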

Additional observations from a re-analysis of the deposited data

How the results depend on the processing

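The share of kept cells that were members, 3.85% at 4 weeks and 6.97% at 2 weeks, became 2.10% and 4.16% when 2 UMIs of each gene group were asked for, 2.57% and 6.00% after thinning before the rule, and 3.50% and 4.24% with no C1q UMI allowed, so that the 2 shares lay closer in that setting. The share was lower at 4 weeks in each of these settings. Genes 2-fold higher at 4 weeks, 412 in the main count, numbered 170 with the highest doublet scores removed, 95 in members between the UMI quartiles, 139 without other-cell members and 189 at 50 UMIs or more. Genes lower at 4 weeks, 224 in the main count, numbered 111 at 50 UMIs or more. Among the 264 listed genes tested, 46 lay above and 61 below 0 by more than their interval, beside 9.91% and 10.1% of all genes. In members between the UMI quartiles, which holds fewer cells, the counts of listed genes were 28 and 32. Against Rag-negative CD4 cells 709 genes were higher and 260 lower, and 427 and 423 under median-of-ratios scaling, with 131 lower at 50 UMIs. Against CD8 cells 1261 were higher and 448 lower, which became 772 and 811 under that scaling, 802 and 250 without other-cell cells, and 932 lower with the highest doublet scores removed. Against cycling double-positive cells 519 were higher, and 234 under that scaling. Positive selection genes higher with Cd69 numbered 0, where most had too few UMIs to be read, and 4 with 2 or more unthinned UMIs. The latter split had unequal depths and no share over all genes beside it. S100a8 turned round to 0.20 in members between the UMI quartiles. Of 182 ratios of named genes under the alternatives, 175 were counted as keeping direction and call, and of 229 list medians 220 moved little. That count does not show what other-cell members did to the genes named between the libraries. Without those members the intervals of Mmp3, Abca8a, Dpep1, Angptl1, Fmo2, S100a9 and S100a8 included 0. The causes were not tested. Depth limits what single cells can show, with a median of 2738.5 UMIs at 4 weeks and 3297.5 at 2 weeks. No paired analysis was possible because each time was 1 library.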

Other observations

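Markers of parathyroid and of thymic epithelium had UMIs in both libraries. Pth, the parathyroid hormone gene, stood at 1083 CPM over kept cells at 4 weeks and 3787 CPM at 2 weeks, and parathyroid markers reached 1% of UMIs in 15 and 60 kept cells. In members Pth stood at 41.6 and 289 CPM. Thymic epithelial markers reached 1% of UMIs in 3 kept cells at 4 weeks and 11 at 2 weeks. At 4 weeks Cxcl12 held 15044 of the list's 16906 UMIs over kept cells. It took up to 1.65% of a cell's UMIs, against 0.325% or less for each other gene of the list. The 3 cells at 4 weeks are therefore not read as thymic epithelium. At 2 weeks Tbata, Prss16 and Ccl25 also took up to 1.91%, 1.26% and 1.11% of a cell's UMIs. Over kept cells Prss16, a cortical epithelial protease gene, stood at 0.279 and 7.17 CPM, and Psmb11, the thymoproteasome subunit, at 0 and 3.73 CPM. Both genes had 0 UMIs in members. Where these cells came from was not tested.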
